A study of Mus musculus with 24 samples.

Results

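De novo lipogenesis, the pathway by which cells make fatty acids from carbohydrate, was followed here through 9 genes chosen by name. No measured value served as a criterion, but earlier results of these data were known. They are 6 enzymes (Acly, Acaca, Fasn, Elovl6, Scd1 and Me1) and 3 regulators (Srebf1, Mlxipl and Thrsp), and make up 9 of the 16730 genes in the deposited table. All 9 were among the 15020 genes that passed the filter on low counts.

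In this pathway, citrate exported from mitochondria is cleaved to acetyl-CoA, which is carboxylated to malonyl-CoA and condensed into palmitate, using NADPH as the reductant. Palmitate is then elongated and desaturated to oleate, the main fatty acid stored in adipocytes. The enzymes are known targets of 2 transcription factors, SREBP-1, which acts downstream of insulin, and ChREBP, which responds to glucose metabolites, and white adipose tissue is known to lower the pathway under a fat-rich diet.

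The tissue was epididymal white adipose tissue (eWAT, labelled gWAT) of male littermate mice on a C57BL/6J background, 24 to 26 weeks old, measured by 3′ end RNA sequencing (QuantSeq) with 1 library per mouse and 6 mice per group. All mice carried Lama4 alleles, encoding the laminin α4 chain of the basement membrane, with loxP sites around exon 3. The 4 groups were Lama4 fl/fl without Cre on chow (diet 5015), Lama4 AKO with adiponectin-driven Cre on chow, Lama4 fl/fl on a high-fat diet (HFD, 45% fat) and Lama4 AKO on HFD, each for 20 weeks on its diet. The Cre acts in adipocytes, so the other cells of the fat pad keep floxed but unrecombined Lama4 alleles, and no group carried Cre without floxed alleles. In the paper's captions, chow feeding began at weaning and ended at 24 weeks of age, and HFD ran from 6 to 26 weeks. Age and feeding schedule may thus differ with diet and cannot be told apart from it. Whether each mouse came from a separate litter or cage is not given, and p-values measure the spread between these mice.

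Libraries held 5579590 to 18764516 counts. HFD AKO libraries (9156492 to 11640690) were all shallower than HFD fl/fl libraries (12450619 to 16787814). Chow fl/fl libraries held 10195574 to 18764516 and chow AKO libraries 5579590 to 16457720. Along the first principal component of all genes (45.8% of the variance), HFD fl/fl mice 3, 4 and 6 had scores of -9.88, -76.1 and -60.4 against 48.2 to 73.5 for the other 3 mice of that group. Chow fl/fl mouse 3 (46.8) and chow AKO mouse 5 (22.1) lay above the rest of their groups, which ranged from -91.8 to 6.18 and from -74.8 to 2.95. Principal component outliers were set aside in the study and are not named in the text used here, and results are therefore also given for the 19 mice left without these 5. Other mice also stood apart on this component and were kept. HFD AKO mouse 6 had 0.85 against 47.2 to 61.5 for the rest of its group. Chow fl/fl mouse 1 had -91.8, with the next lowest of its group at -22.1. Since the 5 were picked on expression, p-values over the 19 mice are too small. The members followed the same component over the 24 mice, with r from -0.92 (Fasn) to -0.59 (Srebf1). Fold changes in the 19 mice were therefore shaped by the choice of mice and are no independent check. Lama4 itself was not lower in the libraries labelled AKO on chow (median 113 CPM against 91.7 in fl/fl, two-sided exact permutation p = 0.524), and on HFD the difference in mean log2 CPM, AKO minus fl/fl, was -0.58 (exact permutation p = 0.152). The 3′ tag lies far from exon 3 and may not check the deletion, so genotype directions follow the labels. All 13 adipocyte markers were detected in each group. Of 11 markers of epididymis and testis only 2 had a row, their sum reaching 17.6 CPM in chow fl/fl mouse 4 and at most 3.24 CPM elsewhere.

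Because the members are described together, the sequences just before some of their transcription start sites are shown first. RefSeq promoters (GRCm38.p6) were matched for 8 of the 9 genes, at 12 start sites, and the 250 bases before each start were searched on both strands for a sterol regulatory element (SRE, TCACNCCAC), an E-box (CACGTG), the CCAAT box bound by NF-Y, and a GC box (GGGCGG). Mlxipl is printed at both of its starts because they alone held an SRE and an E-box, and Fasn and Thrsp because they held the most CCAAT matches. Capitals mark SRE, E-box and CCAAT matches on either strand.
Fasn, chr11:120824548-120824797, minus strand: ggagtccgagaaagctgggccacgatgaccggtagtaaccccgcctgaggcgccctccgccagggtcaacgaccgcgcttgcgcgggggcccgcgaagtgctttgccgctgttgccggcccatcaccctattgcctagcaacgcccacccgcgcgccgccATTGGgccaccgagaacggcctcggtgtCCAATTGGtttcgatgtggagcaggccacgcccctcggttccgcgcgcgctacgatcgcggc
Thrsp, chr7:97417551-97417800, minus strand: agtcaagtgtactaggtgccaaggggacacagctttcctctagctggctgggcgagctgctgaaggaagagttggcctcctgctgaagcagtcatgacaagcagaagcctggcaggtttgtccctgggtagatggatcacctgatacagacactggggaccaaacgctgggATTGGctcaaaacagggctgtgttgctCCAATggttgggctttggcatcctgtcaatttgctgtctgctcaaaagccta
Mlxipl upstream start, chr5:135089640-135089889, plus strand: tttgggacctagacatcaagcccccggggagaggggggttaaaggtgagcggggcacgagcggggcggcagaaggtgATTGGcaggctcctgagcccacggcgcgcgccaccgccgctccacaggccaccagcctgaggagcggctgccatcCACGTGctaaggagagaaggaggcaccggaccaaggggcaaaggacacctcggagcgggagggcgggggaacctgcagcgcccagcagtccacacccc
Mlxipl downstream start, chr5:135106641-135106890, plus strand: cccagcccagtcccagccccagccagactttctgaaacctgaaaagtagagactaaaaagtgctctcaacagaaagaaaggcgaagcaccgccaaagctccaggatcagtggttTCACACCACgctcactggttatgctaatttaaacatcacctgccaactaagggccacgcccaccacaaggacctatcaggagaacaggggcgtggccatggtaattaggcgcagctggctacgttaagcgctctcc

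The Fasn window held 3 CCAAT matches, of which a pair overlap on opposite strands 62 to 55 bases before the start. The Thrsp window held 2, and single matches stood before starts of Srebf1, Me1 and Mlxipl, so that 5 of the 8 genes had a CCAAT box, which 37.5% of 27025 genes with a promoter also held (6 of the 12 start sites, against 33.9% of 32851 promoters). Mlxipl, which encodes ChREBP, has starts 17001 bases apart. The downstream window held the single SRE match (1.05% of promoters) 136 to 128 bases before the start, and the upstream window held the single E-box (6.02% of promoters) 98 to 93 bases before it. GC boxes stood before 4 of the 8 genes, against 35.4% of genes. Counts at the 3′ end do not tell apart transcripts that begin at different starts, for Mlxipl as for Srebf1, whose SREBP-1a and SREBP-1c transcripts share their last exons.

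Values for each gene follow as CPM, counts divided by library size with TMM normalization, and levels are compared between mice only and not between genes, since 3′ counts were not scaled by length. Acly, ATP citrate lyase, which makes cytosolic acetyl-CoA, had a lowest, median and highest value of 100.004, 109.8 and 134 CPM in chow fl/fl mice, and 102, 166 and 243 CPM in chow AKO mice. On HFD the same 3 values were 95.4, 108 and 282 CPM in fl/fl and 85.9, 89.6 and 120 CPM in AKO mice. HFD fl/fl mice 4 and 6 (207 and 282 CPM) stood above the other 4 mice of their group, whose highest value was 111 CPM. HFD AKO mice 3 and 6 (108 and 120 CPM) lay within the range of every other group. The rest of the HFD AKO mice (up to 89.9 CPM) lay below all mice of the other groups.

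Acaca, acetyl-CoA carboxylase 1, the committed step to malonyl-CoA, ranged in chow mice from 35.4 to 115 CPM in fl/fl (median 56.8) and from 46.4 to 116 CPM in AKO (median 63.6). On HFD it ranged from 32.7 to 120 CPM in fl/fl (median 43.5) and from 27.8 to 57.4 CPM in AKO (median 33.3). Chow fl/fl mouse 1, chow AKO mouse 1 and HFD fl/fl mice 4 and 6 were the high mice, and all groups overlapped.

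Fasn, fatty acid synthase, gave 352, 516 and 850 CPM (lowest, median, highest) in chow fl/fl mice and 498, 934 and 1563 CPM in chow AKO mice. On HFD it gave 229, 449 and 1686 CPM in fl/fl and 188, 242 and 799 CPM in AKO mice. In HFD AKO mice the second highest value was 401 CPM, below all 6 chow AKO mice, so that mouse 6 alone carried the overlap between those groups. HFD fl/fl mice 4 and 6 (1607 and 1686 CPM) were above every other mouse of the study.

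Elovl6, which elongates palmitate to stearate, gave 16.9, 21.2 and 24.1 CPM in chow fl/fl mice and 19.3, 32.9 and 46.1 CPM in chow AKO mice. On HFD it gave 9.10, 18.9 and 51.0 CPM in fl/fl and 8.65, 9.89 and 29.6 CPM in AKO mice. As for Fasn, 5 of 6 HFD AKO mice (up to 11.5 CPM) lay below all chow AKO mice, and mouse 6 lay among them.

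Scd1, stearoyl-CoA desaturase, which introduces the double bond of oleate, ranged from 1189 to 12066 CPM in chow fl/fl mice (median 2080) and from 1642 to 8947 CPM in chow AKO mice (median 3483). On HFD it ranged from 1834 to 12814 CPM in fl/fl (median 3264) and from 1087 to 2622 CPM in AKO (median 1451). The high values of chow fl/fl came from mouse 1 alone, and those of HFD fl/fl from mice 4 and 6, while no HFD AKO mouse was high. Scd1 has close paralogs, and reads at similar 3′ ends may be split among them.

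Me1, malic enzyme, a source of NADPH, had medians of 222 CPM in chow fl/fl (186 to 289), 259 in chow AKO (156 to 335), 228 in HFD fl/fl (132 to 478) and 153 in HFD AKO mice (141 to 238). HFD fl/fl mice 4 and 6 had nearly the same value, 478 CPM, more than any other mouse.

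Among the regulators, Srebf1, which encodes SREBP-1, ranged from 19.4 to 65.3 CPM in chow fl/fl (median 30.1) and from 24.4 to 86.7 CPM in chow AKO mice (median 54.2). In HFD fl/fl mice it ran from 7.56 CPM in mouse 2 to 94.6 CPM in mouse 6 (median 41.5), a 12.5-fold range that was also that of all 24 mice. HFD AKO mice were tight, from 28.6 to 39.5 CPM (median 33.3), and lay within the range of every other group.

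Mlxipl had medians of 20.7 CPM in chow fl/fl (15.7 to 43.0), 23.2 in chow AKO (15.9 to 47.5), 23.5 in HFD fl/fl (12.7 to 42.7) and 12.9 in HFD AKO mice (9.24 to 18.2). Of the chow AKO mice, mouse 5, the lowest, was the only one under the highest HFD AKO mouse, while in each fl/fl group 2 mice lay under it.

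Thrsp (Spot14), a small nuclear and cytosolic protein that raises fatty acid synthesis, was the most variable. It gave 134, 302 and 956 CPM in chow fl/fl mice, 151, 424 and 1254 CPM in chow AKO mice, 123, 263 and 1077 CPM in HFD fl/fl mice and 68.4, 117 and 253 CPM in HFD AKO mice. Its range over all 24 mice was 18.3-fold, and its SD between mice of a group, 1.03 on the log2 scale, was at the 94.2nd percentile of all genes tested, where the median gene had 0.42.

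**Figure D1:**
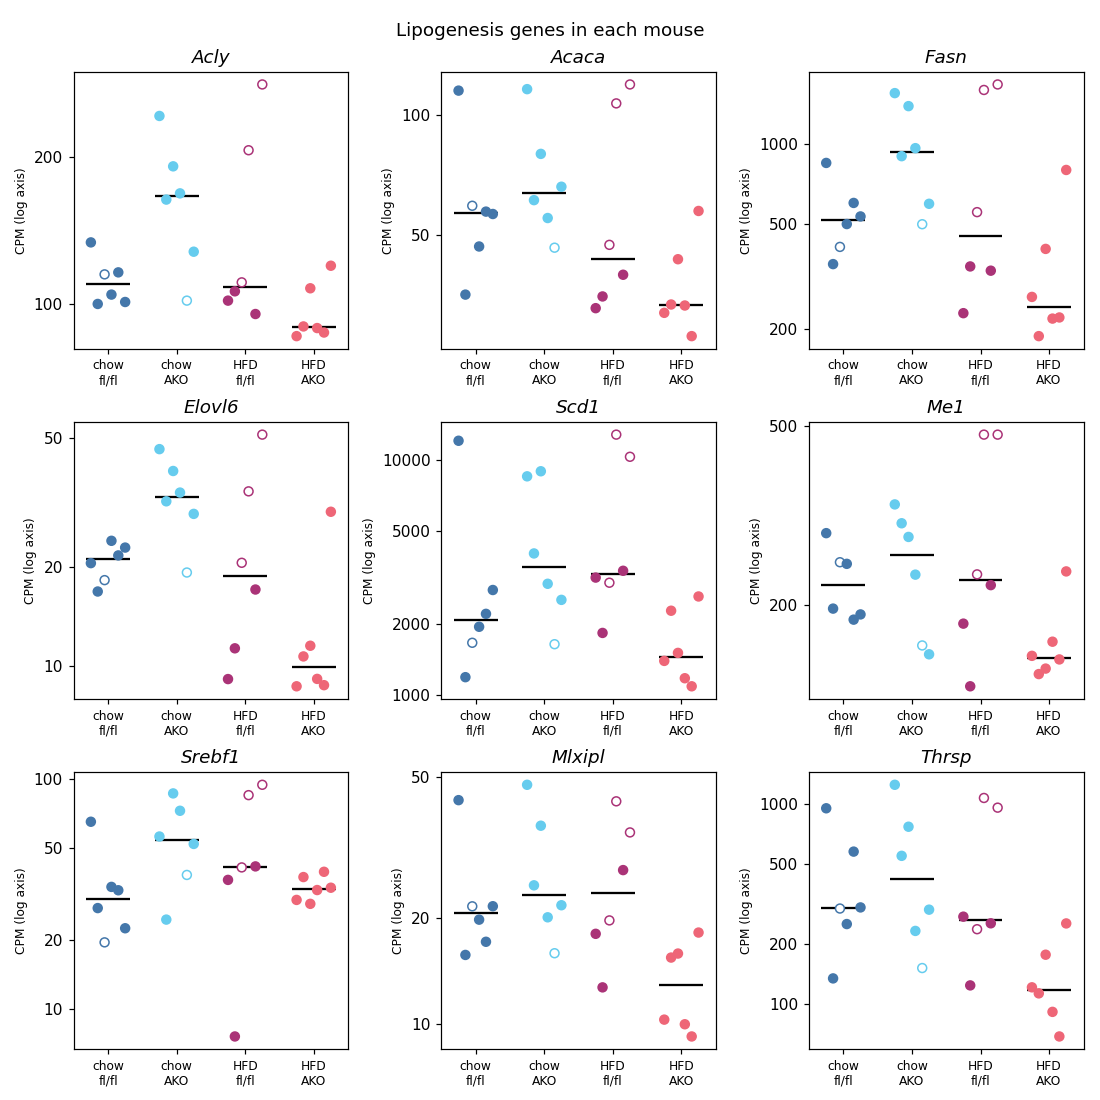
CPM on a log axis for the 9 genes in each of 24 mice (6 per group), with the line at the group's median and open circles for the 5 mice left out of the 19. HFD fl/fl mice 4 and 6, open, lie at or near the top of most panels. Most HFD AKO mice are low in all panels but Srebf1, where they lie within the range of every other group. HFD AKO mouse 6 is the highest of its group in all panels but Srebf1.

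Spread between mice of 1 group was thus unequal. Acly had the smallest SD, 0.41 on the log2 scale, at the 48.7th percentile of all genes, followed by Me1 (0.48), Mlxipl (0.54), Acaca (0.58) and Elovl6 (0.62). Srebf1 (0.79), Fasn (0.83) and Scd1 (0.98) lay at the 85.0th, 86.8th and 92.6th percentiles. The same mice were extreme for most genes, HFD AKO mouse 6 being the highest of its group for 8 of 9 genes, with Srebf1 the exception.

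In AKO mice, 5 lipogenesis genes were lower on HFD than on chow, Elovl6 by the study's criteria and Thrsp, Fasn, Mlxipl and Acly by the adjusted p. All 9 genes had fold changes below 0 on the log2 scale, the median being -1.08 against -0.0031 over all genes. A gene was called when it met the criteria of the study, namely a 1.5-fold difference or more, an unadjusted p no greater than 0.001 and an average of 2 CPM or more in whichever group was higher, and 1 member, Elovl6, was called in edgeR, against 4.12% of all 15020 genes. Elovl6 fell by 1.36 ± 0.36 (log2 fold change ± SE, 6 against 6 mice, adjusted p = 0.0201, Benjamini-Hochberg over all genes tested in edgeR's quasi-likelihood test). With an adjusted p of at most 0.05 and the same fold, 5 members were called, against 16.1% of all genes. The other 4 were Thrsp, lower by a log2 fold change of -1.99 ± 0.57 (edgeR adjusted p = 0.0247), Fasn at -1.50 ± 0.47 (adjusted p = 0.0301), Mlxipl at -1.08 ± 0.31 (adjusted p = 0.0240) and Acly at -0.78 ± 0.24 (adjusted p = 0.0284). The count by adjusted p depended on single mice, since leaving out 1 mouse gave 0 (without chow AKO mouse 3, where 3.44% of all genes passed) to 7, and 1 without chow AKO mouse 1, HFD AKO mouse 4 or HFD AKO mouse 5. As folds, HFD AKO mice held 0.252 of the chow level of Thrsp, 0.353 of Fasn, 0.391 of Elovl6, 0.474 of Mlxipl and 0.581 of Acly.

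The remaining 4 members missed the adjusted threshold in this comparison. Scd1 had a log2 fold change of -1.51 ± 0.57 (edgeR adjusted p = 0.0571), Acaca -0.91 ± 0.33 (adjusted p = 0.0504), Me1 -0.57 ± 0.27 (adjusted p = 0.117) and Srebf1 -0.72 ± 0.39 (adjusted p = 0.174). The 95% interval for Srebf1 ran from -1.49 to 0.06. In the 19 mice, 5 members were called by the study's criteria (Elovl6, Acly, Fasn, Mlxipl and Thrsp), against 15.7% of all genes, and DESeq2 called 4 in the 24 mice, against 8.75%. The only AKO mouse absent from the 19, chow AKO mouse 5, was the lowest of its group for all members but Me1 and Srebf1. Leaving it out raises the chow AKO level of those members, so the 19 mice are no test of this fall. Elovl6 lost its call, with p up to 0.00268, when any 1 of 15 mice was left out, namely any chow fl/fl mouse, chow AKO mice 1 to 4 or HFD AKO mice 1 to 5, while without HFD AKO mouse 6 its log2 fold change was -1.78.

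Cell type markers moved with this comparison. In bulk tissue, fewer adipocytes and less RNA of a gene per adipocyte cannot be told apart. All 13 adipocyte markers were lower in HFD AKO than in chow AKO mice (median -0.98, 1 called), their summed level ranging from 15938 to 43111 CPM in chow AKO and from 9354 to 25448 CPM in HFD AKO mice. In fl/fl mice the sum ranged from 20819 to 54575 CPM on chow and from 9662 to 49228 CPM on HFD. All 12 macrophage markers were higher in HFD AKO than in chow AKO mice (median 1.17, none called), with sums of 2534 to 12622 CPM in chow AKO, 9426 to 19267 CPM in HFD AKO, 1775 to 14524 CPM in chow fl/fl and 2754 to 19061 CPM in HFD fl/fl mice. None of the markers of either list was at 0. Among other lists, 7 of 7 endothelial markers were below 0 (median -0.68), 5 of 6 mesothelial markers (median -1.44, with Msln called lower), 6 of 7 stromal progenitor markers were above 0 (median 0.52, with Pdgfra called higher) and 6 of 6 B cell markers were above 0 (median 1.03). Medians were 0.14 for 8 T cell, -0.27 for 5 red blood cell and -0.60 for 6 brown or beige adipocyte markers. The part of the macrophage and other lists in these results was not tested, and members relative to adipocyte markers are given further on.

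HFD in fl/fl mice gave no call. The log2 fold changes were all above 0 and ran from 0.04 for Acaca to 0.66 for Scd1, with a median of 0.35 and SEs from 0.24 to 0.56. None of the 9 passed in edgeR, against 0.173% of all genes, none had an unadjusted p under 0.05, and limma-voom and DESeq2 also gave 0. Single mice turned the direction of 4 members. Without HFD fl/fl mouse 6, Acaca, Elovl6 and Thrsp went to -0.24, -0.17 and -0.10, and without mouse 4 Acaca, Mlxipl and Thrsp went to -0.17, -0.036 and -0.19. Acaca also went to -0.076 and -0.026 without chow fl/fl mouse 2 or 4. The other 5 members stayed above 0 without each mouse, and Scd1 reached 1.55 without chow fl/fl mouse 1. In the 19 mice all 9 lay below 0 (median -0.54), led by Thrsp at -1.04 and Fasn at -0.91, and none was called, against 11.8% of all genes. That set keeps only the 3 HFD fl/fl mice with the highest scores on the first component, which the members follow inversely. Its direction here is therefore no independent result. The adipocyte markers likewise had a median of -0.08 in 24 mice, 8 of 13 below 0, and -1.11 in the 19 mice.

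AKO against fl/fl on HFD gave fold changes below 0 for all 9, with a median of -0.87 against -0.03 over all genes. The largest were Thrsp at -1.83 ± 0.57 (edgeR adjusted p = 0.291), Scd1 at -1.78 ± 0.57 (adjusted p = 0.291) and Fasn at -1.18 ± 0.46 (adjusted p = 0.293). By the study's criteria 0 of 9 were called in edgeR and limma-voom, against 0.173% of all genes, and 1 (Thrsp) in DESeq2, against 0.539%. At an unadjusted p of at most 0.05 with the 1.5-fold minimum, 8 of 9 passed, all but Srebf1, against 6.91% of all genes, which became 4 without HFD fl/fl mouse 4 or without mouse 6 (2.84% and 3.43% of all genes). Srebf1 went from -0.60 to -0.33 without HFD fl/fl mouse 6. Leaving out chow fl/fl mouse 1 brought a call of Scd1 (-1.78) and leaving out HFD AKO mouse 6 a call of Elovl6 (-1.30). The 19 mice held 5 of 9 members below 0, with a median of -0.06, and no call, against 0.565% of all genes, and the largest difference there was Scd1 at -0.73. All 13 adipocyte markers were also below 0 in the 24 mice (median -0.76), against a median of 0.15 in the 19 mice.

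On chow, AKO mice had fold changes above 0 for all 9 genes, with a median of 0.39. Fasn had a log2 fold change of 0.87 ± 0.46 (edgeR adjusted p = 0.897), Srebf1 of 0.72 ± 0.39 (adjusted p = 0.907), Elovl6 of 0.68 ± 0.35 (adjusted p = 0.883) and Acly of 0.57 ± 0.24 (adjusted p = 0.823), and none of these passed. The count was 0 in edgeR, limma-voom and DESeq2, against 0.113% of all genes, with 1 member at an unadjusted p under 0.05. The macrophage markers were all below 0 here (12 of 12, median -0.49), 9 of 13 adipocyte markers were above 0 (median 0.18) as were 6 of 7 endothelial markers (median 0.29), none called, and their part was not tested. In the 19 mice Acly was called, at 0.69 (edgeR adjusted p = 0.259), against 0.209% of all genes.

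Whether the diet acted differently in the 2 genotypes was tested by the interaction, the HFD effect in AKO minus that in fl/fl mice. It was below 0 for all 9 genes, from -0.91 for Me1 to -2.20 for Thrsp, with a median of -1.32 against -0.03 over all genes. None was called in edgeR or limma-voom, against 0.386% of all genes, the lowest p being that of Acly (-1.21 ± 0.34, edgeR adjusted p = 0.229). DESeq2 called 2, Acly and Fasn, against 0.985%. With an unadjusted p of at most 0.05 and the fold minimum 8 of 9 passed, against 11.3% of all genes, the exception being Acaca, and 6 passed without HFD fl/fl mouse 4 or without mouse 6. Leaving out HFD AKO mouse 6 gave calls of Acly, Fasn and Elovl6, leaving out chow fl/fl mouse 1 a call of Scd1, and leaving out any 1 of HFD fl/fl mice 1, 2, 3 and 5 or chow AKO mice 5 and 6 a call of Acly. The 19 mice gave a median of -0.73, all 9 below 0, with 1 member at an unadjusted p under 0.05 and no call, against 0.68% of all genes. The adipocyte markers were all below 0 here too (median -0.90, and -0.12 in the 19 mice). These comparisons share groups, so their counts are not independent of each other.

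**Figure D2:**
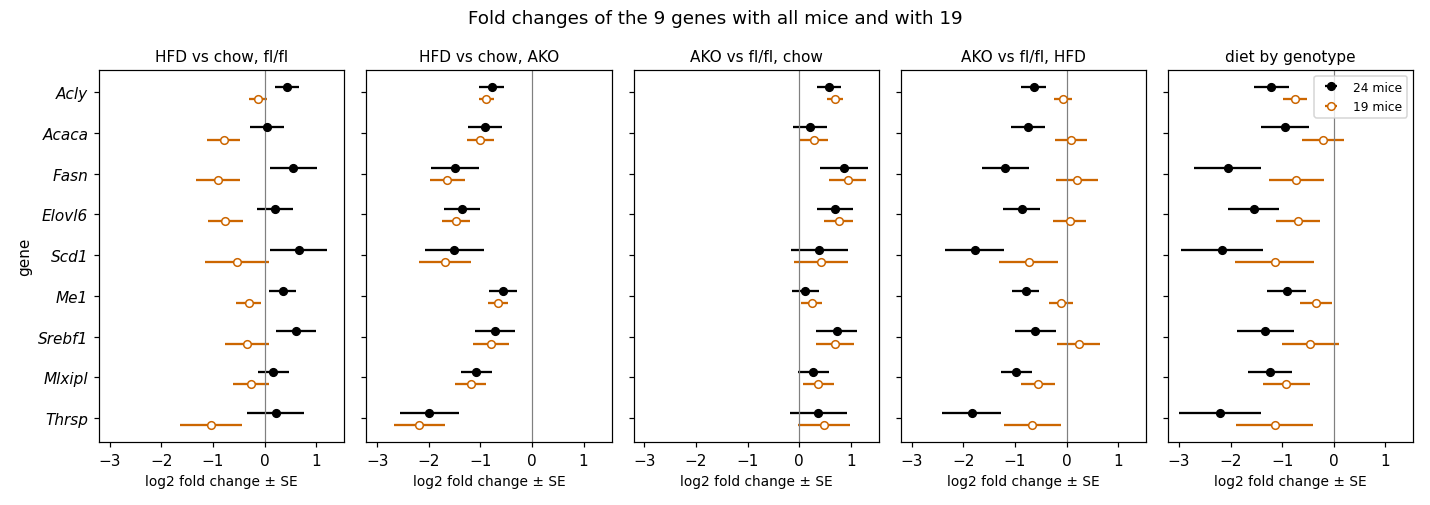
Log2 fold changes ± SE of the 9 genes in 5 comparisons, for 24 mice (black) and 19 mice (open orange). HFD against chow in AKO mice stayed below 0 in both sets, whereas HFD against chow in fl/fl mice changed side and AKO against fl/fl on HFD had 5 of 9 genes below 0 in the 19 mice, from -0.73 to 0.24. The mice absent from the 19 were picked on expression, and the only AKO mouse among them was low for most of these genes.

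Averaged over genotypes, HFD had a median of -0.43 over the members, and none was called in edgeR, limma-voom or DESeq2, against 2.25% of all genes, with 1 passing at an unadjusted p of at most 0.05 with the fold minimum, against 11.6% of all genes. In the 19 mice 4 were called, against 21.4% of all genes. Averaged over diets, AKO had a median of -0.27 and no call, against 0.0333% of all genes. HFD AKO against chow fl/fl mice gave a median of -0.67, with 0 called against 2.1% of all genes, and HFD fl/fl against chow AKO mice -0.14, with 0 called against 0.12%, or 3 called in the 19 mice against 13.9%. No member had groups free of overlap in any of the 6 pairs of groups, where up to 6.86% of all genes did (HFD against chow in AKO mice).

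Other genes of the pathway were taken from 7 lists of 80 genes in all, 74 of them tested. HFD against chow in AKO mice called 4 lower and 1 higher, against 4.12% of all genes, and the median of the 74 was -0.15. Insig1, which holds SREBP in the endoplasmic reticulum and is itself an SREBP target, fell by 1.75 ± 0.42 on the log2 scale (edgeR adjusted p = 0.0166), from a median of 127 CPM (46.7 to 211) in chow AKO to 35.3 CPM (30.2 to 53.7) in HFD AKO mice. Aldh1l1, a folate enzyme that yields NADPH, fell by 1.39 ± 0.37 (adjusted p = 0.0207), Hlcs, which attaches biotin to acetyl-CoA carboxylase, fell by 0.86 ± 0.19 (adjusted p = 0.0130), and Nfyb, a subunit of the CCAAT-binding NF-Y, fell by 0.61 ± 0.16 (adjusted p = 0.0200). Mbtps2, the site-2 protease that releases SREBP, rose by 0.84 ± 0.22 (edgeR adjusted p = 0.0190). Hlcs kept its call in all 24 analyses that left out 1 mouse, while Insig1 lost its call in 4, Nfyb and Mbtps2 in 11 each and Aldh1l1 in 15, with p up to 0.00371.

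With the adjusted p alone and no fold minimum, 13 of the 74 pathway genes were lower and 5 higher in this comparison, against 12.9% and 9.13% of all genes. All 10 genes listed under citrate and acetyl-CoA supply, which include the inhibitory kinase Pdk4, lay below 0 (median -0.13). NADPH supply genes as a list lay near 0 (median -0.08), as did those of SREBP processing (median -0.09) and the acetyl-CoA carboxylase partners (median 0.04). Elongation and desaturation genes had a median of -0.22, ChREBP and LXR partners -0.16 and mitochondrial fatty acid synthesis -0.34.

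Paralogs of the members were read in the same comparison. Acacb, the carboxylase paralog whose malonyl-CoA restrains mitochondrial fatty acid uptake, stood at -1.66 ± 0.50 (edgeR adjusted p = 0.0280), with medians of 17.4 CPM in chow AKO and 4.45 CPM in HFD AKO mice. Scd2, a desaturase, stood at -1.37 ± 0.41 (adjusted p = 0.0271). The paralogs Mid1ip1 (of Thrsp), Me2 and Me3 (of Me1), Srebf2 and Mlxip had log2 fold changes of -0.30, -0.27, -0.61, -0.42 and 0.18, none with an adjusted p of at most 0.05 in edgeR (lowest 0.104, Srebf2).

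The interaction called 3 pathway genes, all below 0, against 0.386% of all genes, while none was called for HFD in fl/fl mice or for either genotype comparison. In the 19 mice, HFD in fl/fl called 9 of the pathway genes (5 higher and 4 lower, against 11.8% of all genes), and AKO against fl/fl called 2 on chow (against 0.209%) and 2 on HFD (against 0.565%). Scd2 had an interaction of -2.49 ± 0.58 (edgeR adjusted p = 0.220), with medians of 122 CPM in chow fl/fl, 305 in chow AKO, 150 in HFD fl/fl and 99.4 in HFD AKO mice. Insig1 had -2.50 ± 0.59 (adjusted p = 0.220). Tkt, transketolase of the pentose phosphate pathway, had -1.04 ± 0.28 (adjusted p = 0.220), lost in 18 of 24 analyses that left out 1 mouse, with p up to 0.00235. In the 19 mice Scd2 (-1.45) and Insig1 (-1.39) lost their calls and Tkt kept its own at -1.40.

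**Figure D3:**
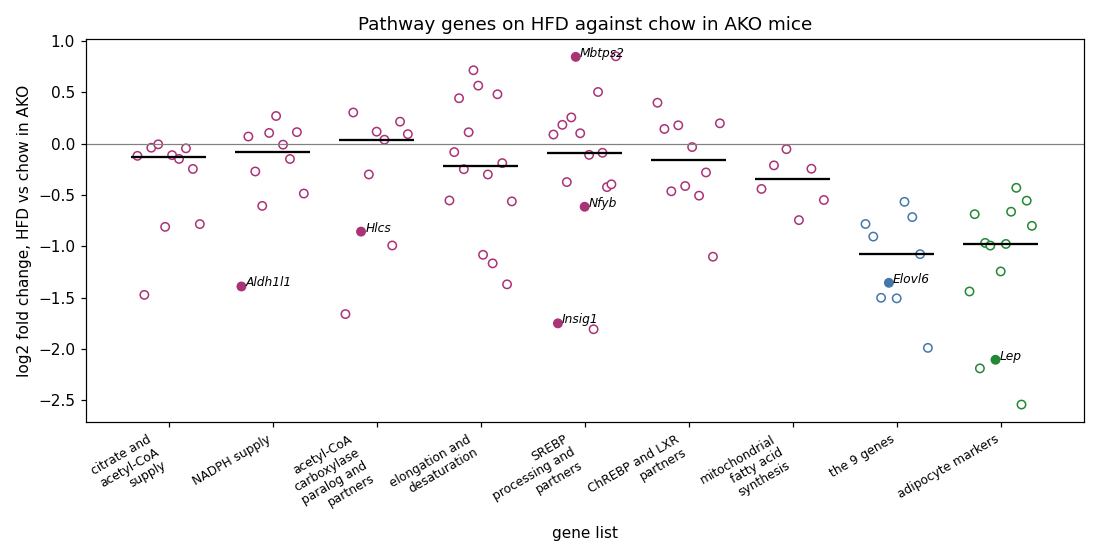
Log2 fold change of each tested gene for HFD against chow in AKO mice, by list, with the 9 genes and the 13 adipocyte markers at the right, filled where called and with lines at the medians. The 9 genes and the adipocyte markers have medians near -1, and the other pathway lists lie between -0.34 and 0.04.

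On the scale of log2 CPM minus the mean log2 CPM of the 13 adipocyte markers in the same mouse, an analysis added after the data were seen, none of 36 tests (9 genes in 4 pairwise comparisons) had an adjusted p of at most 0.05 (two-sided exact permutation tests, Benjamini-Hochberg over the 36). A single test at the smallest p these numbers allow would have an adjusted p of 0.0779, so no member could pass alone. For HFD against chow in AKO mice, 5 of 9 members lay above 0 and 4 below. Fasn and Thrsp stood at -0.47 (exact p = 0.0260, adjusted p = 0.156) and -0.63 (exact p = 0.0390, adjusted p = 0.175), and Elovl6 at -0.33 (exact p = 0.0736). Me1 stood at 0.59 (exact p = 0.00649, adjusted p = 0.117), Acly at 0.38 (exact p = 0.0476, adjusted p = 0.190), Srebf1 at 0.51, Acaca at 0.24 and Mlxipl at 0.11. The marker mean itself differed by -1.12 on the log2 scale in HFD AKO against chow AKO mice (exact permutation p = 0.0108), beside the median fitted change of -1.08 of the members. The lowest p of all was that of Fasn for AKO against fl/fl on chow, at 0.67 relative to the markers (exact p = 0.00216, the smallest that 6 against 6 mice allow, adjusted p = 0.0779). For AKO against fl/fl on HFD, Thrsp and Scd1 stood at -0.79 (exact p = 0.0238) and -0.75 (exact p = 0.0173), both with adjusted p = 0.156. Relative to the markers, all 9 members lay above 0 for HFD against chow in fl/fl mice. The highest was Scd1 at 1.04 (exact p = 0.0108, adjusted p = 0.130), and Fasn stood at 0.42 (exact p = 0.0303, adjusted p = 0.156). All 9 also lay above 0 there in the 19 mice, from 0.20 (Fasn) to 1.02 (Scd1). The marker mean itself differed by -1.07 in that set.

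**Figure D4:**
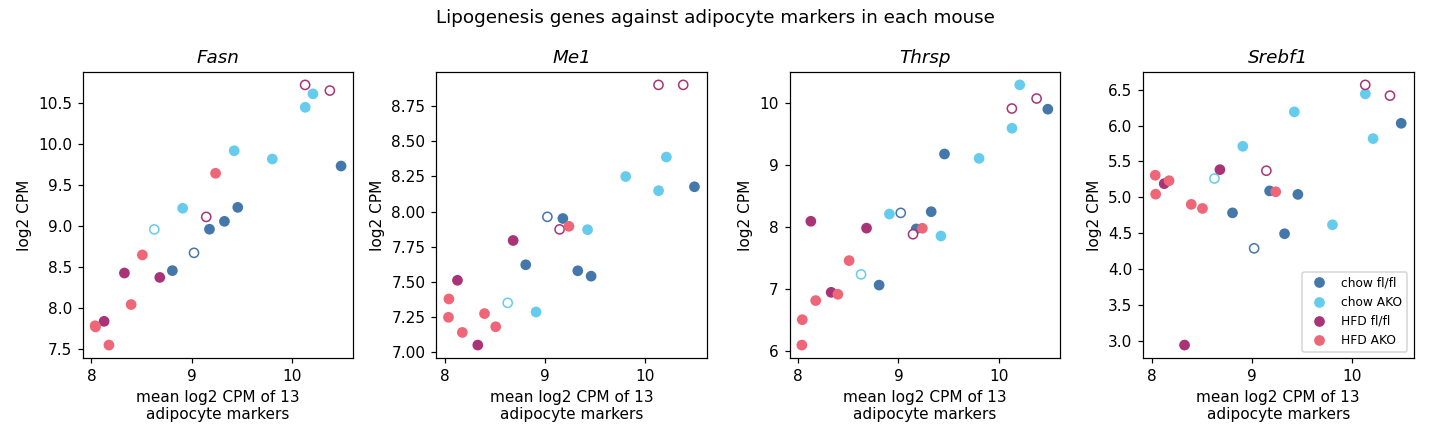
Log2 CPM of Fasn, Me1, Thrsp and Srebf1 against the mean log2 CPM of 13 adipocyte markers in each of 24 mice, coloured by group and open for the 5 mice left out of the 19. Fasn, Me1 and Thrsp rise with the markers over all groups, and Srebf1 scatters most, with HFD fl/fl mouse 2 lowest.

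Across mice the members varied together. Over the 36 pairs of members, Pearson's r of log2 CPM centred within groups ranged from 0.54 to 0.93 with a median of 0.80 (n = 24 mice), and in the 19 mice from 0.11 to 0.91 with a median of 0.65. Scd1 and Mlxipl were the closest pair (r = 0.93), then Fasn with Elovl6 and Acaca with Thrsp (both 0.91). Srebf1 was the loosest, with a mean r of 0.60 to the other 8, against 0.75 to 0.84 for the rest.

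Each regulator was set against each enzyme, and each member against the adipocyte gene Adipoq, in 27 pairs with a permutation test that shuffled mice within groups. Of these, 26 had an adjusted p of at most 0.05 by Pearson's r, 25 by Spearman's rho and 21 by Pearson's r in the 19 mice. The share of other gene pairs that would pass was not computed, so the count does not set these pairs apart. Of 8910 genes with a mean of at least 10 CPM, 669 had r over 0.8 with the members' mean. Mlxipl with Scd1 had r = 0.93 and rho = 0.87 (permutation p = 1e-05, the smallest that 100000 permutations can give, adjusted p = 2.08e-05), and r = 0.91 both without the 2 mice farthest in Mlxipl and in the 19 mice. Thrsp with Acaca had r = 0.91 and rho = 0.87 (permutation p = 1e-05, adjusted p = 2.08e-05) and r = 0.88 in the 19 mice. Srebf1 with Fasn had r = 0.55 and rho = 0.50 (permutation p = 0.0245, adjusted p = 0.0276), r = 0.47 without the 2 farthest mice and r = 0.11 in the 19 mice, so that the relation did not hold in the smaller set. Srebf1 with Acly (r = 0.56, permutation p = 0.0529) did not pass.

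Because HFD fl/fl mice fell apart along the first component, r was also taken within each group of 6. The median over the 27 pairs was 0.80 in chow fl/fl, 0.88 in chow AKO, 0.89 in HFD fl/fl and 0.75 in HFD AKO mice. The lowest single values were 0.15 (Mlxipl with Elovl6), 0.05 (Srebf1 with Me1), 0.67 (Srebf1 with Acly) and -0.38 (Srebf1 with Acaca). In the 20 pairs without Srebf1 they were 0.15, 0.75, 0.74 and 0.39. Within HFD AKO mice, Srebf1 had r from -0.38 (Acaca) to 0.04 (Scd1) with the enzymes, and -0.36 with Fasn. Over the 24 mice, Adipoq had r = 0.91 with Scd1 and r = 0.91 with Thrsp. With Scd1, the regulators Mlxipl, Thrsp and Srebf1 had r of 0.93, 0.91 and 0.67. Adipoq followed Srebf1 least (r = 0.52, permutation p = 0.0351, adjusted p = 0.0365). All 13 adipocyte markers had r from 0.70 (Pparg) to 0.95 (Plin1) with the mean of the members.

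**Figure D5:**
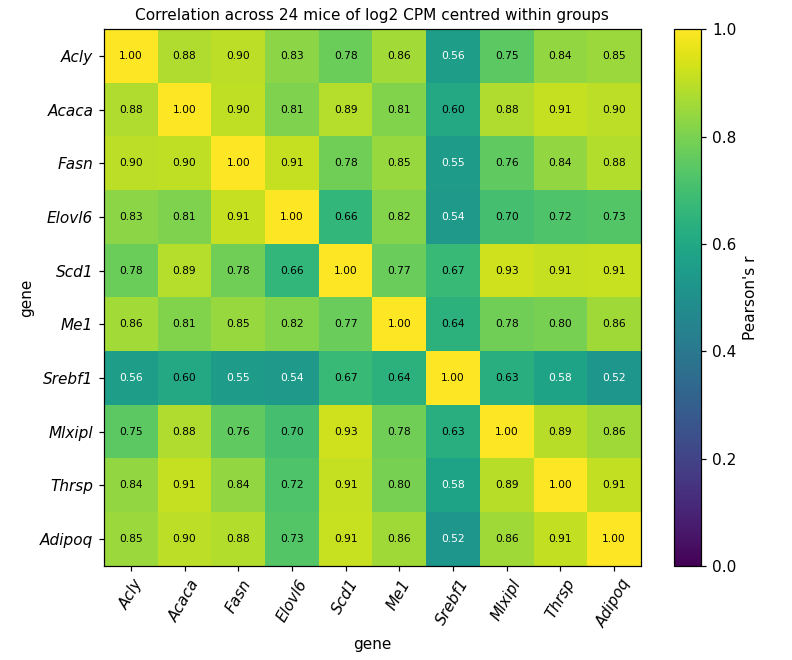
Pearson's r across 24 mice, between log2 CPM values centred within groups, for the 9 genes and Adipoq, on a colour scale from 0 to 1. The row of Srebf1 is the darkest, with r from 0.52 to 0.67, and the closest pair is Scd1 with Mlxipl.

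Among the genes outside the set that followed the mean of the members most closely were, of 8910 genes with a mean of at least 10 CPM, Chpt1 (r = 0.96), Yap1 (r = 0.96), Rbp4 (r = 0.96), Glb1l2 (r = 0.96), Ppp2r5a (r = 0.96), Plagl1 (r = 0.96) and Tshr (r = 0.95), over 24 mice and with no test. Chpt1 encodes a choline phosphotransferase, Rbp4 the retinol-binding protein secreted by fat and liver, and Tshr the thyrotropin receptor. Such closeness was common, since 669 of these genes (7.51%) had r over 0.8 with the members' mean. Of those named, Ppp2r5a was called for HFD against chow in AKO mice (-1.31 ± 0.33, edgeR adjusted p = 0.0186).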

How the data were processed

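The members and gene lists were chosen with earlier results of these data known. Whole-gene counts were deposited by the authors, who mapped 50 bp forward QuantSeq reads to GRCm38 (mm10) with the Lexogen QuantSeq pipeline, which reads the 3′ end of transcripts. A second deposited table holds a signal made by the authors by dividing the counts by size factors (DESeq2 1.30 in R 4.0.3, per the submitters' processing notes), and only its symbols and gene positions were used. Groups were taken from the sample titles and genotype and diet labels, and no column of another sample was present.

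From the counts, genes reaching 1 CPM in 3 or more of 24 libraries were kept (15020 of 16730), TMM factors were computed and edgeR 4.0.16 in R 4.3.3 (glmQLFit, glmQLFTest) was fitted with 1 coefficient per group, p-values being adjusted by Benjamini-Hochberg over all genes tested. Log2 CPM used a prior count of 2. Log2 fold changes are given with SEs and normal 95% intervals. limma-voom (limma 3.58.1) followed the study's methods as an alternative, with DESeq2 1.42.0 as another, and the code was tested on simulated data.

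Genes named outside the members were the paralogs, up to 5 called pathway genes per comparison by lowest p, and the 8 genes of highest r with the members' mean, of which 1 is not reported here. Alternatives were the 19 mice, other normalizations, filters, thresholds and samples, the replicate block and leaving out each mouse. Correlations used log2 CPM centred within groups, with mice shuffled within groups 100000 times. No 2 libraries of a group agreed within sampling noise (lowest chi-square per degree of freedom 5.72), and r between them was 0.859 to 0.984. Promoters came from RefSeq on GRCm38.p6, a genome matching the build of the files.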

Additional observations from a re-analysis of the deposited data

Results flagged for a closer look

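In 36 groups of 6 mice (9 members in 4 groups), 4 had a mouse farther from the rest than Dixon's 95% critical ratio for groups of 6 allows, and chance gives about 1 in 20. The members vary together and all flags came from HFD AKO mouse 6 or chow fl/fl mouse 1. The 36 groups are therefore not independent, and the share flagged is no test against 1 in 20. HFD AKO mouse 6 was high for Elovl6, at a log2 CPM of 4.90 with the next mouse at 3.54, and for Me1, at 7.90 with the next at 7.38. Chow fl/fl mouse 1 was high for Scd1, at 13.56 with the next mouse at 11.45, and for Mlxipl, at 5.43 with the next at 4.44. In the interaction term of the edgeR fit, 3 other genes of the pathway met the study's criteria, against 0.386% of all genes. Their log2 values were -2.49 for Scd2, -2.50 for Insig1 and -1.04 for Tkt, with an edgeR adjusted p of 0.220 in each case. Scd2 and Insig1 lost their calls in the 19 mice, and Tkt in 18 of 24 analyses that left out 1 mouse. The adipocyte markers were also below 0 in this term (median -0.90).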

How the results depend on the processing

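HFD against chow in AKO mice kept its direction for all 9 members in every fit of the counts, but 5 of 9 lay above 0 relative to the adipocyte markers, a scale chosen after seeing the data. The count of members called there, 1 (4.12% of all genes), became 5 in the 19 mice (15.7%), 6 with limma-voom on the 19 mice (15.9%), 4 with DESeq2 (8.75%), 3 with only the 2 groups compared (9.55%), 5 with an adjusted p of at most 0.05 (16.1%) and 7 with an unadjusted p of at most 0.05 (23.7%), so that the share of all genes rose as well. It was 0 to 4 when single mice were left out (1.99% to 7.8% of all genes). Relative to the adipocyte markers 0 had an adjusted p of at most 0.05, in an exact permutation test whose smallest p, 0.00216, cannot meet the study's criteria. AKO against fl/fl on HFD went from 0 (0.173% of all genes) to 1 with DESeq2 (0.539%) and 8 with p at most 0.05 (6.91%). Without single mice it was 0 to 1 (0.0866% to 0.606%). The interaction went from 0 (0.386%) to 2 with DESeq2 (0.985%) and 8 with p at most 0.05 (11.3%). Without single mice it was 0 to 3 (0.193% to 1.26%). AKO against fl/fl on chow had 1 in the 19 mice with edgeR (0.209%) and 1 with limma-voom on them (0.168%). Diet averaged over genotypes had 4 in the 19 mice (21.4%), 3 with limma-voom on them (21.7%) and 1 with p at most 0.05 (11.6%). HFD fl/fl against chow AKO had 3 in the 19 mice with either tool (13.9% and 15.1%). HFD AKO against chow fl/fl had 3 with p at most 0.05 (15.9%). Other counts of members were the same, at 0, without each single mouse.

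Directions reversed for HFD against chow in fl/fl mice in the 19 mice, where Acly, Acaca, Fasn, Elovl6, Scd1, Me1, Srebf1, Mlxipl and Thrsp had log2 fold changes of -0.14, -0.80, -0.91, -0.77, -0.54, -0.31, -0.35, -0.27 and -1.04, and with limma-voom on the 19 mice, at -0.13, -0.68, -0.88, -0.81, -0.10, -0.33, -0.57, -0.22 and -0.81. With limma-voom on all mice Acaca and Elovl6 went to -0.067 and -0.068. Leaving out single mice gave a range of -0.24 to 0.32 for Acaca, -0.17 to 0.37 for Elovl6, -0.036 to 0.43 for Mlxipl and -0.19 to 0.64 for Thrsp. For AKO against fl/fl on HFD, the 19 mice gave 0.081 for Acaca, 0.21 for Fasn, 0.061 for Elovl6 and 0.24 for Srebf1, and limma-voom on them 0.044 for Acaca, 0.024 for Fasn and 0.56 for Srebf1. On chow, Thrsp ranged from -0.071 to 0.79 without single mice. The cause of these moves was not tested beyond the removal of mice itself. Mice absent from the 19 were picked by a component that the members follow, so the reversals there are no independent result. Relative to the adipocyte markers, all members lay above 0 for HFD against chow in fl/fl mice, with all mice and with the 19.

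Mouse numbers are shared by the groups but pair no mice by the labels: same-numbered mice deviated together with r from -0.48 to 0.71, above 0.1 in 10 of 24 pairs. With the replicate number as a block, 1 member was called for HFD against chow in AKO mice and 0 in each other comparison, so no count of members changed. Of 27 pairs correlated, 26 passed, against 25 by Spearman's rho and 21 in the 19 mice. Over all genes, HFD against chow in AKO mice called 619, or 2332 in the 19 mice and 1315 with DESeq2. HFD against chow in fl/fl mice called 26, 1750 and 60, AKO against fl/fl on HFD 26, 84 and 81, AKO against fl/fl on chow 17, 31 and 41, and the interaction 58, 101 and 148, in the same order. Leaving out single mice moved these 5 counts, which are the shares of all genes given beside the members, to 299 (without chow AKO mouse 3) to 1169 (without chow AKO mouse 5), 14 to 63, 13 to 91, 4 to 65 and 29 to 188. Members were counted well above 0 in every library, the lowest count being 83, although HFD AKO libraries were all shallower than HFD fl/fl libraries.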
